A study of Homo sapiens with 4 samples.

Results

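Expression of 38 genes of glycolysis and of the hypoxia response was examined in UMSCC74B cells, which are labelled as a head and neck squamous cell carcinoma (HNSCC) line. The genes were chosen by name, as carriers of glucose and lactate, glycolytic enzymes, known targets of the hypoxia-inducible factors (HIFs), and the HIF alpha subunits. All 38 were among the 29655 gene names in the deposited tables, and 37 were abundant enough to be tested. The comparison was between 2 libraries from cells given control shRNA (genotype WT) and 2 libraries labelled PRMT5 KD, from cells given shRNA against PRMT5, an arginine methyltransferase. All cells were grown in DMEM with FBS, and by the labels RNA was taken 72 h after the shRNA plasmids were introduced. The paper's methods instead describe transduction with lentiviral particles for 72 h, and which was used was not settled. The labels name no hypoxic culture and no oxygen level. They state that PRMT5 mRNA and protein were assessed by qRT-PCR and immunoblot, whose values were not analysed here, and the paper's text states that an immunoblot showed the silencing. All libraries came from 1 cell line. The labels do not state whether the libraries of a group came from separate cultures, so the p-values measure the spread between these libraries, which may be technical.

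In glycolysis, glucose enters the cell through SLC2A carriers and is converted to pyruvate, which lactate dehydrogenase can reduce to lactate for export through SLC16A carriers. HIF1A and EPAS1 (also called HIF-2 alpha) are the alpha subunits of HIFs. When oxygen is plentiful, the EGLN prolyl hydroxylases mark these subunits for VHL-dependent degradation, and when it is scarce they pair with ARNT and activate genes for glycolysis, vessel growth, pH control and mitophagy. Control of the alpha subunits is best known at the protein level, which RNA-seq does not measure.

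The transcript aimed at by the shRNA went against the label. PRMT5 measured 94.2 and 84.2 CPM (counts scaled to the size of each library) in control, and 132 and 150 CPM in those labelled PRMT5 KD, higher by 0.66 on the log2 scale (SE 0.12, FDR = 0.00536 by edgeR's quasi-likelihood test), and without control library 2 the call was lost (FDR = 0.0663). The groups are therefore named by their labels below, and every direction rests on them. Total counts were 52263508 to 66070664 per library, of which protein-coding genes took 71.5% to 81.4% and names of ribosomal RNA took 14.2% to 26.2%, the latter most in KD-labelled library 1. The labelled cell type was not borne out by its markers. KRT5, KRT14 and KRT6A had 0 to 21.8 counts in any library, only 4 of 12 epithelial and squamous markers could be tested, and the 12 together summed to 50.4 to 73.1 CPM. DSG3, a desmosomal cadherin of squamous cells, was present at 43.0 and 36.4 CPM in control and 18.8 and 25.4 CPM in the KD-labelled libraries. By contrast, all 7 fibroblast markers were tested and all 7 were lower in the KD-labelled libraries, with sums of 797 and 935 CPM in control and 129 and 151 CPM in the others. CD14, listed as a leukocyte marker, was also lower, with 34.6 and 39.9 against 1.07 and 1.86 CPM, whereas CD68, the only other leukocyte marker tested, was higher, with 94.5 and 113 against 153 and 170 CPM (0.64, FDR = 0.00817). PTPRC had at most 5 counts and CD3E had 0 in every library. In bulk RNA, fewer cells of a type and less RNA per cell cannot be told apart, and the part of these shifts in the results that follow was not tested.

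Of the 37 genes tested, 17 were called, that is, they passed an FDR under 0.05 and differed by 0.5 or more on the log2 scale in either direction. The background was broad, since 45.6% of all 11912 genes tested were called. Of the 37, 7 were higher in the KD-labelled libraries (21.3% of all genes tested) and 10 were lower (24.3%). The libraries of the groups did not overlap for 29 of the 37, against 80.5% of all genes tested. The median log2 fold change was 0.00 over the 37 genes and -0.01 over all genes tested, and the members went in both directions. Scaling by total counts gave medians of 0.18 and 0.17, with 10 of the 37 called higher and 9 lower (3505 and 2211 of all genes), and the length and GC correction gave 0.14 and 0.06, with 9 higher and 10 lower (2879 and 2506). Without control library 2 the number called was 11, with 26.2% of all genes called, and without control library 1 it was 14, with 32.7%. When a log2 difference of 1 or more was required, 7 of the 37 genes were called and all of these were lower. Of all genes tested, 21.6% were then called, 1033 higher and 1536 lower. PFKP, at 0.9995, fell just short of that threshold, and PKM, at -1.003, just passed it. Reads may be shared where protein-coding genes overlap. On the same strand, where counting by strand would not separate them, these were ATP7A for PGK1, UCN2 for PFKFB4, LRRC23 for ENO2, RSKR for ALDOC and SPTSSA for EGLN3. On the opposite strand they were PGAM4 for PGK1, SENP1 for PFKM, SPSB2 for TPI1, CSNK1D for SLC16A3 and ARHGEF39 for CA9. Also on that strand were UFSP2 for ANKRD37, PNMA2 for BNIP3L, and PDLIM4 and SLC22A4 for P4HA2. The use of strand in counting is not given in the sources used here.

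**Figure D1:**
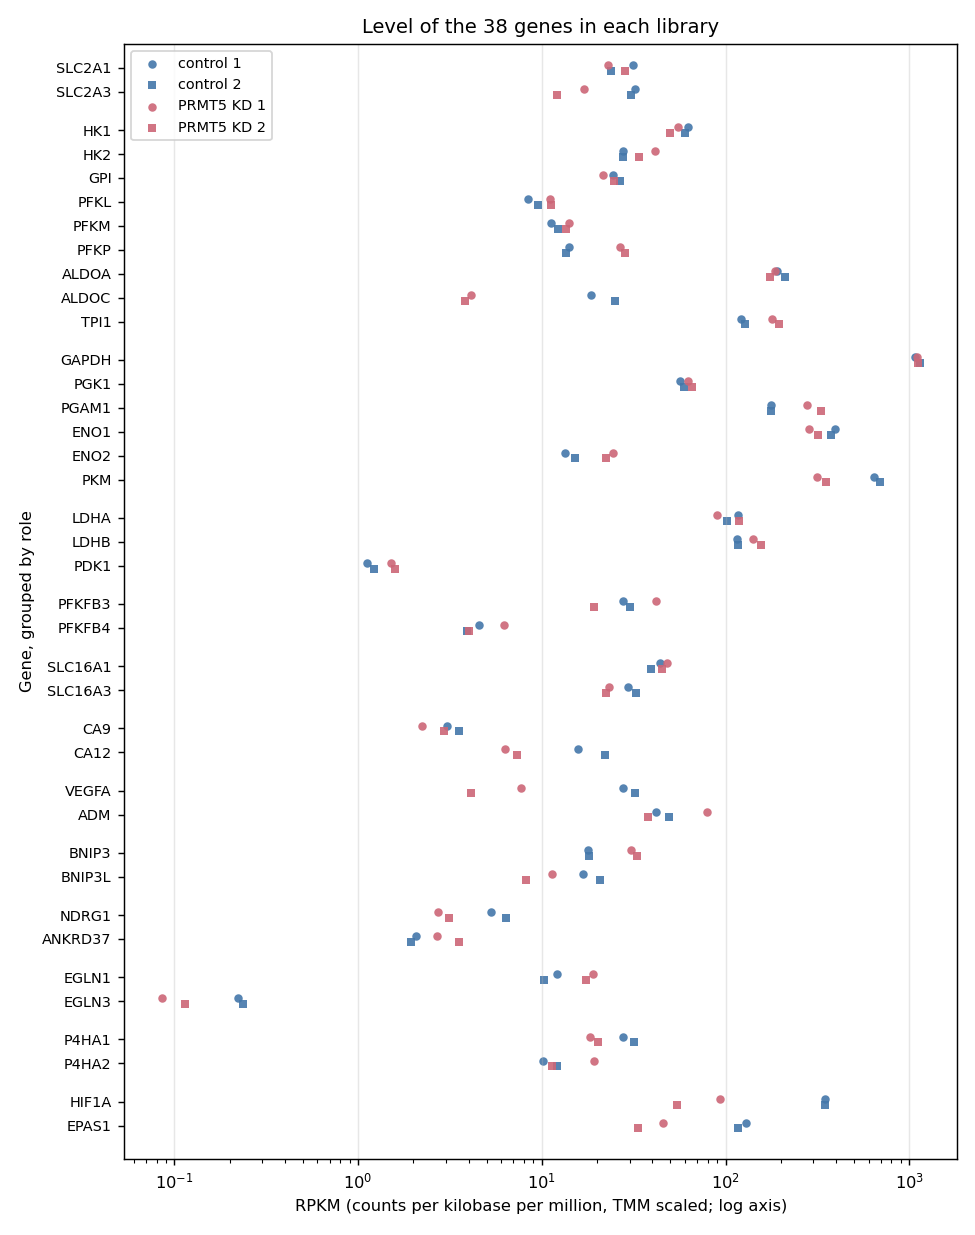
Level of each of the 38 genes in each library, in RPKM (reads per kilobase of exon, scaled to library size) on a log axis, with the genes grouped by role and 1 point for each of the 2 control and 2 PRMT5 KD-labelled libraries. GAPDH, PKM, ENO1 and HIF1A have the highest levels in control, and the HIF1A, EPAS1, VEGFA and ALDOC points of the KD-labelled libraries lie to the left of the control points.

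Promoter sequence was read for the same genes because the letters ACGTG and GCGTG are the core of the element that HIFs bind. Windows of 300 bases, from 250 before to 50 after a start site, were taken from RefSeq (GRCh38.p14), and 33 of the 38 genes had 60 windows between them. No window was matched for VEGFA, BNIP3L, SLC16A1, NDRG1 and SLC2A3. On either strand, ACGTG occurred in 38.3% of the 60 windows, against 25.6% of 13533 windows of genes tested and 21.4% of all 35116 windows. For GCGTG the shares were 40.0%, 48.3% and 36.5% in that order, and for either motif they were 66.7%, 60.6% and 48.4%. The palindrome CACGTG, which holds ACGTG on both strands and is therefore part of the first count, occurred in 13.3%, 9.26% and 7.26%. Some genes have several windows, which can lie close together. Averaged per gene, the ACGTG shares were 44.7%, 26.8% and 21.4% in the same order. For either motif these averages were 79.3%, 62.9% and 48.0%. The windows of the 38 genes were also richer in G and C, with a median of 68.3% against 64.7% and 58.7%. The 5 stretches that follow show 2 genes that were higher in the KD-labelled libraries (BNIP3 and ANKRD37), 1 that was lower (ALDOC) and 2 that were not called (HK2 and LDHA). They are written 5′ to 3′ on the strand of the gene, with ACGTG and GCGTG in capitals. A match on the opposite strand reads CACGT or CACGC. They lie at chr10:131982011-131982078 (minus strand) for BNIP3, chr4:185396667-185396714 (plus) for ANKRD37, chr17:28576987-28577145 (minus) for ALDOC, chr2:74834964-74835116 (plus) for HK2 and chr11:18394366-18394506 (plus) for LDHA, and overlap no annotated exon.
BNIP3: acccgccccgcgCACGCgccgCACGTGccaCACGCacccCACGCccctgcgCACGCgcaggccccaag
ANKRD37: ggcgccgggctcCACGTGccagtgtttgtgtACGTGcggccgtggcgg
ALDOC: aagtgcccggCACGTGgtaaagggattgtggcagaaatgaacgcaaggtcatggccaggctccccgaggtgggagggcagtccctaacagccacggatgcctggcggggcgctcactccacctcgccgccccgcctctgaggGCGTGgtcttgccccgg
HK2: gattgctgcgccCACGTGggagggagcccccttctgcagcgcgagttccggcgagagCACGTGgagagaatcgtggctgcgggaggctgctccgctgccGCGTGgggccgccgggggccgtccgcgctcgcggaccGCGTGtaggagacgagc
LDHA: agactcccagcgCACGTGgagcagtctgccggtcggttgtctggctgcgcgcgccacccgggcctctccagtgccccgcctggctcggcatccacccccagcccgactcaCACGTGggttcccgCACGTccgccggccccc

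These stretches hold 6 matches for BNIP3, 3 for ANKRD37, 3 for ALDOC, 6 for HK2 and 5 for LDHA, where each CACGTG is counted on both strands. The genes shown were picked for the most matches within each call class, so finding matches in every class was fixed in advance. Without that choice, ACGTG occurred in 54.5% of 11 windows (7 genes called higher). The share was 28.6% of 7 windows (6 genes called lower) and 36.6% of 41 windows (19 genes not called). For GCGTG the shares were 27.3%, 71.4% and 39.0% in that order. Averaged per gene, the ACGTG shares were 67.9%, 33.3% and 42.0%. A match is a description of the letters and no test of binding.

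Both HIF alpha subunits were lower in the KD-labelled libraries. HIF1A (chromosome 14, 61695513 to 61748259, plus strand, GRCh38) had 1798 and 1788 CPM in control and 482 and 279 CPM in the KD-labelled libraries, 4.71-fold lower (log2 fold change -2.24, SE 0.28, FDR = 0.00154). EPAS1 (chromosome 2, 46293667 to 46386697, plus strand) had 946 and 851 CPM in control and 335 and 242 CPM in the others, 3.12-fold lower (-1.64, SE 0.19, FDR = 0.00101). The groups did not overlap for either gene, and in both the lowest level was in KD-labelled library 2. In control HIF1A was among the more abundant of the 38 transcripts, at a mean of 348 RPKM against 123 RPKM for EPAS1. HIF1A kept the larger part of their summed RPKM in every library, but its share was 72.9% and 74.8% in control and 67.1% and 62.0% in the KD-labelled libraries.

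Among the secreted products, VEGFA and ADM differed in their pattern. VEGFA, the main growth factor of blood vessels and a classical HIF target, had 399 and 462 CPM in control and 111 and 59.3 CPM in the KD-labelled libraries (chromosome 6, 43770184 to 43786487, plus strand). It was 5.05-fold lower (log2 fold change -2.34, SE 0.32, FDR = 0.00341). Both KD-labelled libraries were far below both control libraries. ADM encodes adrenomedullin, a vasodilator peptide that is also a HIF target. Its 96.8 and 114 CPM in control lay between 185 and 87.7 CPM in the KD-labelled libraries, and it was not called (0.37, SE 0.37, FDR = 0.444).

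The carbonic anhydrases CA9 and CA12 are membrane enzymes that hydrate carbon dioxide at the cell surface and thereby buffer acid. CA12 had 109 and 154 CPM in control and 44 and 51 CPM in the KD-labelled libraries (log2 fold change -1.47, SE 0.19, FDR = 0.00147). CA9, widely used as a hypoxia marker, was low throughout, at 4.87 and 5.63 CPM in control and 3.57 and 4.67 CPM in the KD-labelled libraries (-0.35, FDR = 0.232). Its groups did not overlap, yet the difference was not called.

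The mitophagy receptors BNIP3 and BNIP3L moved in opposite directions. BNIP3, a mitochondrial outer membrane protein whose gene is a HIF target, had 72.4 and 73.4 CPM in control and 124 and 133 CPM in the KD-labelled libraries (log2 fold change 0.82, SE 0.11, FDR = 0.00146). Its promoter stretch above, picked for its matches, holds 6 matches to the searched motifs. The relative BNIP3L had 69.2 and 85.7 CPM in control and 47.2 and 34.2 CPM in the others (-0.93, SE 0.19, FDR = 0.00854), and its call was lost without control library 2 (-0.77, FDR = 0.0741). Counted per length, BNIP3L made up 48.3% and 53.3% of the pair in control and 27.1% and 20.02% in the KD-labelled libraries.

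NDRG1 and ANKRD37, 2 further hypoxia-responsive genes, also went opposite ways. NDRG1, a stress-responsive gene linked to differentiation, had 63.4 and 76.7 CPM in control and 32.8 and 37.5 CPM in the KD-labelled libraries (log2 fold change -0.99, SE 0.14, FDR = 0.00195). With exon length and GC content corrected for, its difference was smaller but still called (-0.61, FDR = 0.0117). ANKRD37, an ankyrin repeat gene with 3 motif matches in the stretch shown, was near the lower end of the levels, with 4.64 and 4.37 CPM in control and 6.08 and 7.93 CPM in the others (0.64, SE 0.21, FDR = 0.0430). That call did not hold without control library 1 (FDR = 0.159), control library 2 (FDR = 0.212) or KD-labelled library 2 (FDR = 0.123), nor with the length and GC correction (0.47, FDR = 0.111) or a replicate term (0.63, FDR = 0.0794).

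The oxygen sensor EGLN1, the main hydroxylase acting on HIF1A, was higher in the KD-labelled libraries. It had 65.1 and 55.3 CPM in control and 103 and 93.0 CPM in the others (log2 fold change 0.70, SE 0.13, FDR = 0.00501), and without control library 2 the adjusted p was 0.0575 (0.59). EGLN3, itself a strongly hypoxia-induced gene, fell under the abundance filter, with 1.64 and 1.74 CPM in control and 0.631 and 0.837 CPM in the KD-labelled libraries. With no filter its log2 fold change was -1.15 (SE 0.36, FDR = 0.0294). EGLN1 held 97.8% to 98.2% of the pair's RPKM in control and 99.3% to 99.6% in the KD-labelled libraries.

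P4HA1 and P4HA2 encode the catalytic subunits of collagen prolyl 4-hydroxylase, which stabilizes the collagen helix. P4HA1 had 86.0 and 98.6 CPM in control and 56.9 and 62.5 CPM in the KD-labelled libraries (log2 fold change -0.63, SE 0.12, FDR = 0.00634), a call that was lost without control library 2 (-0.53, FDR = 0.0667). P4HA2 had 103 and 123 CPM in control and 195 and 115 CPM in the others (0.46, SE 0.27, FDR = 0.203). KD-labelled library 2 lay between the control libraries for P4HA2. The collagen genes in the fibroblast list, the substrates of these enzymes, were lower as well, with COL1A1 at 81.4 and 95.3 CPM in control and 19.6 and 26.2 CPM in the KD-labelled libraries. The part of this shift in the P4HA1 difference was not tested.

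**Figure D2:**
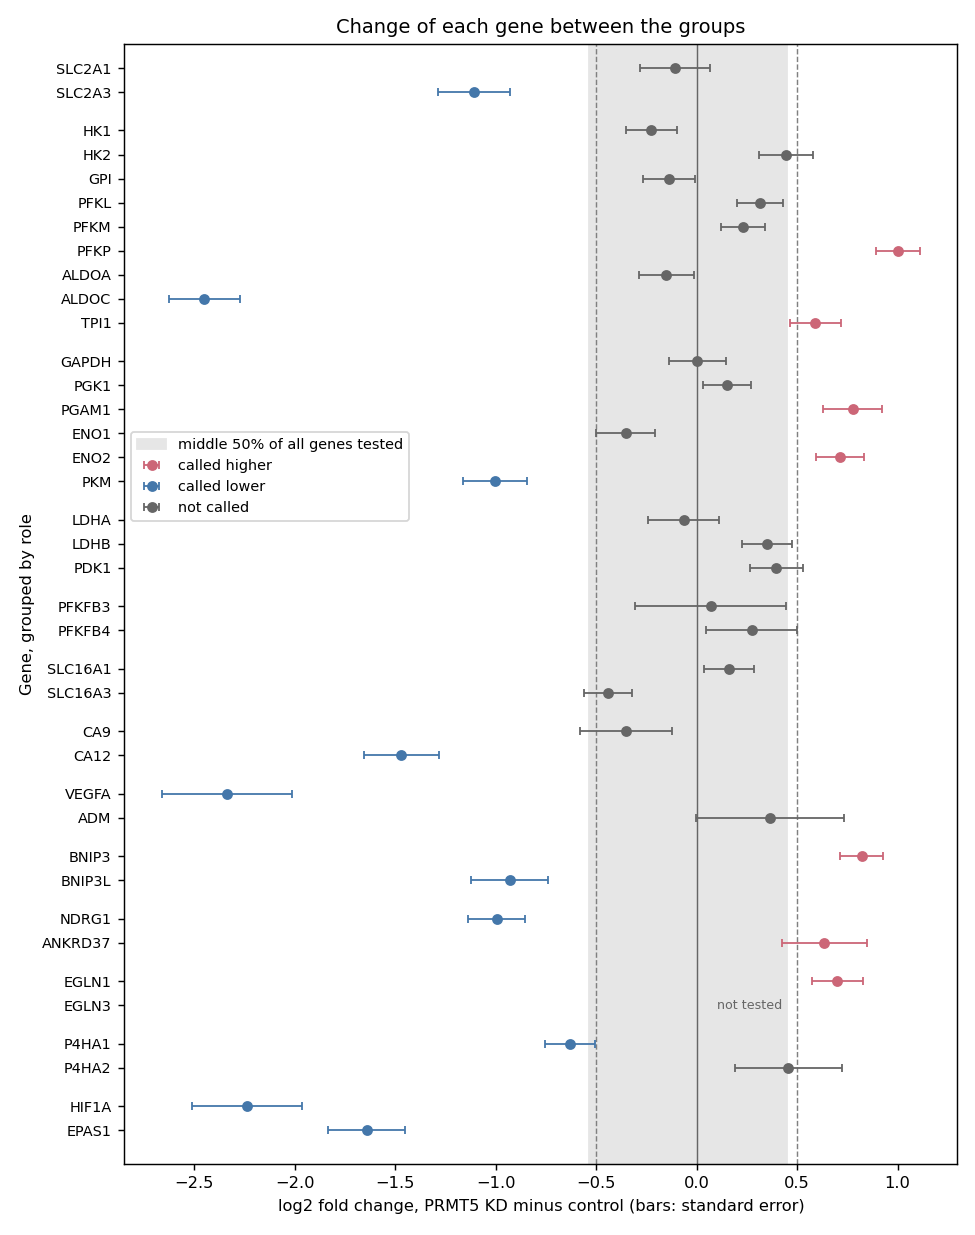
Log2 fold change of each of the 37 tested genes, libraries labelled PRMT5 KD minus control, with bars for the standard error, colour for the call and dashed lines at 0.5 and -0.5. The grey band holds the middle of all 11912 genes tested. VEGFA, ALDOC and HIF1A lie farthest to the left, and PFKP, at 1.00, lies farthest to the right.

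Of the 15 glycolytic enzymes from hexokinase to pyruvate kinase, 4 were higher in the KD-labelled libraries (PFKP, TPI1, PGAM1 and ENO2), 2 were lower (ALDOC and PKM) and 9 were not called. Over all genes tested, 21.3% were called higher and 24.3% lower. The median log2 fold change of the enzymes was 0.15. Of the remaining 22 genes tested, 3 were higher, 8 were lower and 11 were not called, with a median of -0.09. Per length, the summed level of the 15 enzymes was 2841 and 2967 RPKM in control and 2608 and 2740 RPKM in the KD-labelled libraries. In CPM the sums were 13173 and 13803 against 10445 and 11065, and without PKM they were 7690 and 7859 against 7753 and 8055. Thus on the CPM scale the sums of the groups overlapped once PKM was left out. Per length they did not, and without PKM both KD-labelled sums lay above both control sums.

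Of the glucose carriers, SLC2A3 (GLUT3, a high-affinity carrier) was lower and SLC2A1 (GLUT1, the common basal carrier and a HIF target) was not called. SLC2A3 had 233 and 221 CPM in control and 123 and 87.5 CPM in the KD-labelled libraries (log2 fold change -1.11, SE 0.18, FDR = 0.00321). Its counts carry decimals in all 4 libraries, and whether reads were divided with another gene was not tested. SLC2A1 had 208 and 157 CPM in control and 152 and 187 CPM in the others (-0.11, FDR = 0.631), so the groups overlapped. The SLC2A3 share of the pair's RPKM was 50.6% and 56.3% in control and 42.6% and 30.0% in the KD-labelled libraries.

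The hexokinases phosphorylate glucose and so trap it in the cell. HK1, the constitutive form, had 428 and 415 CPM in control and 380 and 341 CPM in the KD-labelled libraries (log2 fold change -0.23, FDR = 0.178). HK2, the form that is inducible by HIF and insulin, had 163 CPM in both control libraries and 244 and 201 CPM in the others (0.45, SE 0.13, FDR = 0.0296), under the fold threshold. Its difference would be called without KD-labelled library 2 (0.59, FDR = 0.00318) or with the length and GC correction (0.51, FDR = 0.0182). The HK2 stretch above, with 6 matches, was picked for its matches among the genes not called, so nothing is read from them here. The HK1 share of the pair's RPKM was 69.2% and 68.6% in control and 57.2% and 59.4% in the KD-labelled libraries.

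GPI, which isomerizes glucose 6-phosphate, had 262 and 285 CPM in control and 231 and 265 CPM in the KD-labelled libraries (log2 fold change -0.14, FDR = 0.393). The 3 phosphofructokinases, which catalyse the committed step, were all on the higher side, but PFKP alone was called in the main test. Their groups did not overlap, as was so for 80.5% of all genes tested. PFKP, the platelet type, had 109 and 105 CPM in control and 206 and 220 CPM in the KD-labelled libraries (1.00, SE 0.11, FDR = 0.000822), and lies on chromosome 10 at 3066333 to 3137718 (plus strand). PFKL, the liver type, had 75.1 and 85.1 CPM in control and 99.3 and 99.8 CPM in the others (0.31, FDR = 0.0558), and with the length and GC correction it was called (0.72, FDR = 0.00241). PFKM, the muscle type, had 81.3 and 88.6 CPM against 101 and 98.1 CPM (0.23, FDR = 0.115). The PFKP share of the family's RPKM was 41.6% and 38.2% in control and 51.4% and 53.4% in the KD-labelled libraries.

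The aldolases split fructose 1,6-bisphosphate. ALDOC, the brain-type aldolase and a known hypoxia-responsive gene, had 48.2 and 65.1 CPM in control and 10.8 and 9.98 CPM in the KD-labelled libraries (chromosome 17, 28573115 to 28576948, minus strand). It was 5.46-fold lower (log2 fold change -2.45, SE 0.18, FDR = 0.000319), the largest difference among the 37 genes in this fit. ALDOA, the main form, had 732 and 802 CPM in control and 713 and 670 CPM in the others (-0.15, FDR = 0.383), and its counts also carry decimals in all 4 libraries. Because ALDOA held 91.2% and 89.4% of the pair's RPKM in control, and 97.8% and 97.9% in the KD-labelled libraries, ALDOC was the minor form throughout.

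TPI1 and PGAM1 were both higher in the KD-labelled libraries. TPI1 interconverts the triose phosphates and had 328 and 343 CPM in control against 483 and 527 CPM (log2 fold change 0.59, SE 0.13, FDR = 0.00907). PGAM1, the phosphoglycerate mutase, had 449 and 452 CPM in control against 705 and 838 CPM (0.78, SE 0.15, FDR = 0.00544). The TPI1 call was lost without control library 1 (FDR = 0.0854) or control library 2 (FDR = 0.0755), and so was the PGAM1 call (FDR = 0.0567 and FDR = 0.0637). Both genes have processed copies in the genome, and their counts carry decimals in 3 libraries for TPI1 and 4 for PGAM1, so these values are uncertain.

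GAPDH, often used as a loading reference, had 2589 and 2726 CPM in control and 2648 and 2681 CPM in the KD-labelled libraries (log2 fold change 0.00, SE 0.14, FDR = 0.985). PGK1, the first ATP-yielding enzyme of the pathway, had 306 and 321 CPM in control and 338 and 358 CPM in the others (0.15, FDR = 0.321). PGK1 did not overlap between the groups but was not called.

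Enolase forms phosphoenolpyruvate. The neuronal form ENO2 had 57.0 and 64.6 CPM in control and 104 and 95.6 CPM in the KD-labelled libraries (log2 fold change 0.71, SE 0.12, FDR = 0.0035). ENO1, the abundant form, had 2064 and 1945 CPM in control and 1489 and 1651 CPM in the others (-0.35, SE 0.15, FDR = 0.0833). ENO2 accounted for 3.25% and 3.89% of the pair's RPKM in control and 7.83% and 6.59% in the KD-labelled libraries, so ENO1 remained the main form in all 4.

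PKM, the pyruvate kinase of most tissues, had 5482 and 5944 CPM in control and 2692 and 3010 CPM in the KD-labelled libraries. The gene lies on chromosome 15 at 72199029 to 72231819 (minus strand), and its log2 fold change was -1.003 (SE 0.16, FDR = 0.00283). The gene tables do not separate the PKM1 and PKM2 splice forms. With the length and GC correction the difference was -0.72 (FDR = 0.0084).

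The lactate dehydrogenases interconvert pyruvate and lactate. LDHA, a HIF target, had 704 and 612 CPM in control and 544 and 713 CPM in the KD-labelled libraries (log2 fold change -0.07, SE 0.18, FDR = 0.773), and its groups overlapped. LDHB had 343 and 350 CPM in control and 422 and 462 CPM in the others (0.35, FDR = 0.0523). The LDHB share of the pair's RPKM was 49.6% and 53.6% in control and 61.0% and 56.7% in the KD-labelled libraries. PDK1, a kinase that holds pyruvate back from the mitochondrial dehydrogenase, had 16.7 and 18.2 CPM in control and 22.4 and 23.5 CPM in the others (0.40, SE 0.13, FDR = 0.0398), under the fold threshold, and was called with the length and GC correction (0.74, FDR = 0.00457).

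The lactate carriers did not pass the call. SLC16A1 (MCT1) had 280 and 249 CPM in control and 304 and 287 CPM in the KD-labelled libraries (log2 fold change 0.16, FDR = 0.315). SLC16A3 (MCT4), the carrier typical of strongly glycolytic cells, had 273 and 302 CPM in control and 215 and 208 CPM in the others (-0.44, SE 0.12, FDR = 0.0206), under the fold threshold, and its value was 0.00 with the length and GC correction. The SLC16A1 share of the pair's RPKM was 59.9% and 54.5% in control and 67.3% and 66.8% in the KD-labelled libraries.

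The bifunctional enzymes PFKFB3 and PFKFB4 set the level of fructose 2,6-bisphosphate, an activator of phosphofructokinase. PFKFB3 had 170 and 185 CPM in control and 255 and 118 CPM in the KD-labelled libraries (log2 fold change 0.07, SE 0.37, FDR = 0.892). It was called lower without KD-labelled library 1 (-0.55, FDR = 0.00627) and called higher without KD-labelled library 2 (0.53, FDR = 0.00719), so 1 library decides its direction. PFKFB4 had 27.8 and 23.8 CPM in control and 37.9 and 24.5 CPM in the others (0.27, SE 0.22, FDR = 0.34). In ADM and P4HA2, as in PFKFB4, KD-labelled library 1 alone lay above both control libraries. Without KD-labelled library 2, PFKFB4 (0.56, FDR = 0.00931), ADM (0.81, FDR = 0.000575) and P4HA2 (0.79, FDR = 0.000711) would each be called higher. The KD-labelled libraries differed by more than 1.5 times in 6 of the 38 genes, which were these 4 with HIF1A and VEGFA, against 9.08% of all genes tested. No gene of the 38 did so between the control libraries, against 3.62% of all genes tested. For all 6, KD-labelled library 1 was the higher.

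**Figure D3:**
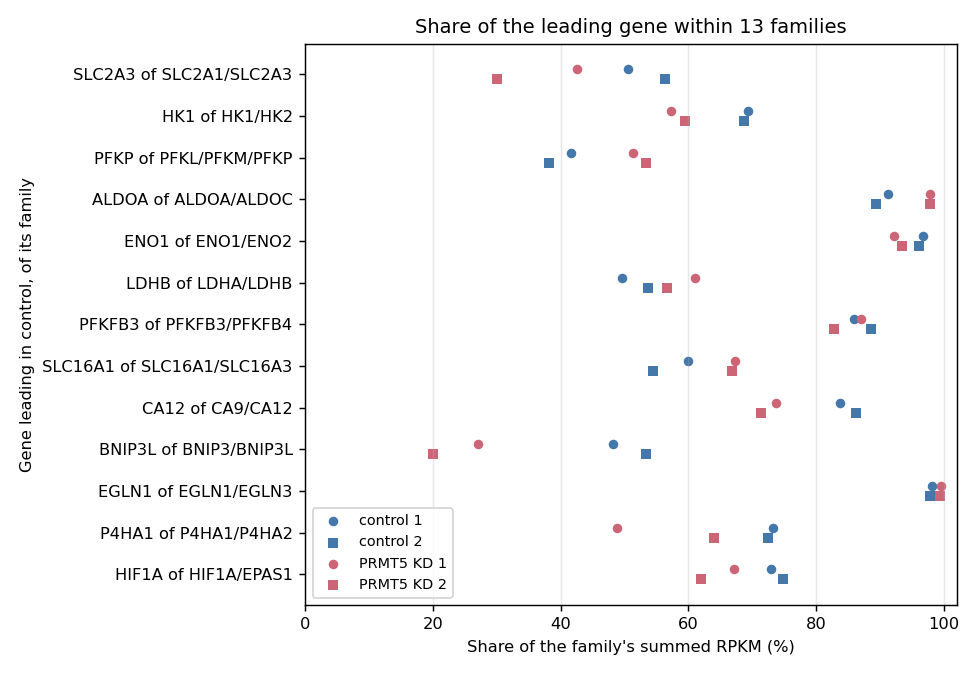
Share of the RPKM of each isozyme family held by the member with the highest control mean, in percent, with 1 point for each of the 2 control and 2 PRMT5 KD-labelled libraries. The points of the groups overlap for PFKFB3 alone, and the largest gap is that of BNIP3L, from 48.3% and 53.3% in control to 27.1% and 20.02%.

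Isozyme makeup was compared within 13 families, per length so that members of unequal exon length could be set side by side. In 12 of the 13 the shares of the groups did not overlap, and the leading member's share was lower in the KD-labelled libraries in 8. Single genes did not overlap in 80.5% of all genes tested, so nothing is read from the 12. The leading member was picked by its control share, which favours a lower share in the other group. Nothing is therefore read from the number of families with a lower leading share. Besides the families given above, CA12 held 83.7% and 86.2% of its pair in control and 73.8% and 71.4% in the KD-labelled libraries. P4HA1 held 73.2% and 72.4% in control and 48.9% and 64.1% in the others. The exception was PFKFB3, with 85.9% and 88.6% against 87.0% and 82.8%. Which member leads depended on the unit. By counts, LDHA (mean of 65.4% in control), P4HA2 (55.0%) and SLC16A3 (52.1%) led their pairs. Per length, LDHB, P4HA1 and SLC16A1 led these pairs. By counts the leading share was lower in the KD-labelled libraries in 9 of the 13 families. With 2 libraries in each group no exact permutation test can pass the threshold, and these shares are given as a description.

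Genes of the same pathways outside the 38 were listed by function, with earlier results of these data known. The genes named from each list are among its called genes with the largest changes. The percentages in parentheses give the share of all genes tested called in that direction. Of 15 genes of the HIF machinery, 14 were tested, 1 was higher (21.3%), 2 were lower (24.3%), and the median log2 fold change was 0.11. ARNT, the partner of the alpha subunits, had 74.9 and 77.6 CPM in control and 43.8 and 41.2 CPM in the KD-labelled libraries (-0.84, SE 0.11, FDR = 0.00136). Its relative ARNT2 had 19.1 and 27.2 CPM in control and 3.85 and 4.41 CPM in the others (-2.49, SE 0.22, FDR = 0.000468). RBX1, a subunit of the VHL ubiquitin ligase, was higher, with 19.5 and 20.7 CPM against 36.5 and 33.9 CPM (0.81, SE 0.12, FDR = 0.0024). Thus transcripts of both alpha subunits and of both partners were lower in the same libraries.

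Of 36 other HIF targets, 34 were tested, 5 were higher (21.3% of all genes tested), 14 were lower (24.3%), and the median was -0.29. The called genes with the largest falls were DDIT4, an inhibitor of mTORC1 signalling (log2 fold change -1.38, FDR = 0.00413), PLOD2, a collagen lysyl hydroxylase (-1.33, FDR = 0.000924), LOX, a collagen cross-linking enzyme (-1.12, FDR = 0.00799), and MXI1, a MYC antagonist (-1.12, FDR = 0.0015). PLOD2 and LOX modify collagen, and the fibroblast markers were lower in the same libraries. The part of that shift in these differences was not tested. Called higher were, among others, PPP1R3C, a glycogen-targeting phosphatase subunit (1.94, FDR = 0.0136), STC1, a secreted glycoprotein (1.72, FDR = 0.00492), and HIGD1A, a mitochondrial protein (0.80, FDR = 0.00143). STC1 had 35.2 and 41.7 CPM in control and 159 and 94.1 CPM in the KD-labelled libraries. Without control library 2 the calls of LOX (FDR = 0.0590) and PPP1R3C (FDR = 0.0653) were lost, and PPP1R3C was also lost without control library 1 (FDR = 0.0655). HIF targets were thus found on both sides, as among the 38.

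Of 43 other genes of glycolysis and pyruvate metabolism, 29 were tested, 3 were higher (21.3% of all genes tested), 11 were lower (24.3%), and the median was -0.18. PDK3, a kinase of pyruvate dehydrogenase like PDK1, had 31.8 and 41.6 CPM in control and 6.43 and 7.53 CPM in the KD-labelled libraries (log2 fold change -2.39, SE 0.18, FDR = 0.000346). The hexose carriers SLC2A4 (-2.27, FDR = 0.000763) and SLC2A10 (-2.01, FDR = 0.000745) and the D-lactate dehydrogenase LDHD (-1.87, FDR = 0.00107) were also lower. PGM2, a phosphopentomutase, was higher (1.17, FDR = 0.000783), as was PDHX, a component of the pyruvate dehydrogenase complex (0.71, FDR = 0.00399). PGAM4, also called higher (1.04, FDR = 0.00628), is a retrocopy of PGAM1 that lies within the PGK1 gene, so its reads cannot be separated from theirs with certainty. The PGAM4 call was lost without control library 1 (FDR = 0.0516) or control library 2 (FDR = 0.0706).

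All 8 genes of the pentose phosphate pathway, which branches from glucose 6-phosphate and yields NADPH, were tested, and 2 were higher (21.3% of all genes tested), 3 were lower (24.3%), with a median of -0.31. H6PD, which starts the pathway in the endoplasmic reticulum, had 401 and 494 CPM in control and 172 and 149 CPM in the KD-labelled libraries (log2 fold change -1.48, SE 0.16, FDR = 0.000745). The transketolase TKT was lower as well (-0.52, FDR = 0.0212). RPIA, which forms ribose 5-phosphate (1.18, FDR = 0.00131), and the transaldolase TALDO1 (0.55, FDR = 0.00816) were higher. The TALDO1 call was lost without control library 1 (FDR = 0.0821) or control library 2 (FDR = 0.0563). That of TKT was lost without control library 1 (FDR = 0.106), control library 2 (FDR = 0.128) or KD-labelled library 1 (FDR = 0.0796), and with the length and GC correction (-0.18, FDR = 0.309).

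**Figure D4:**
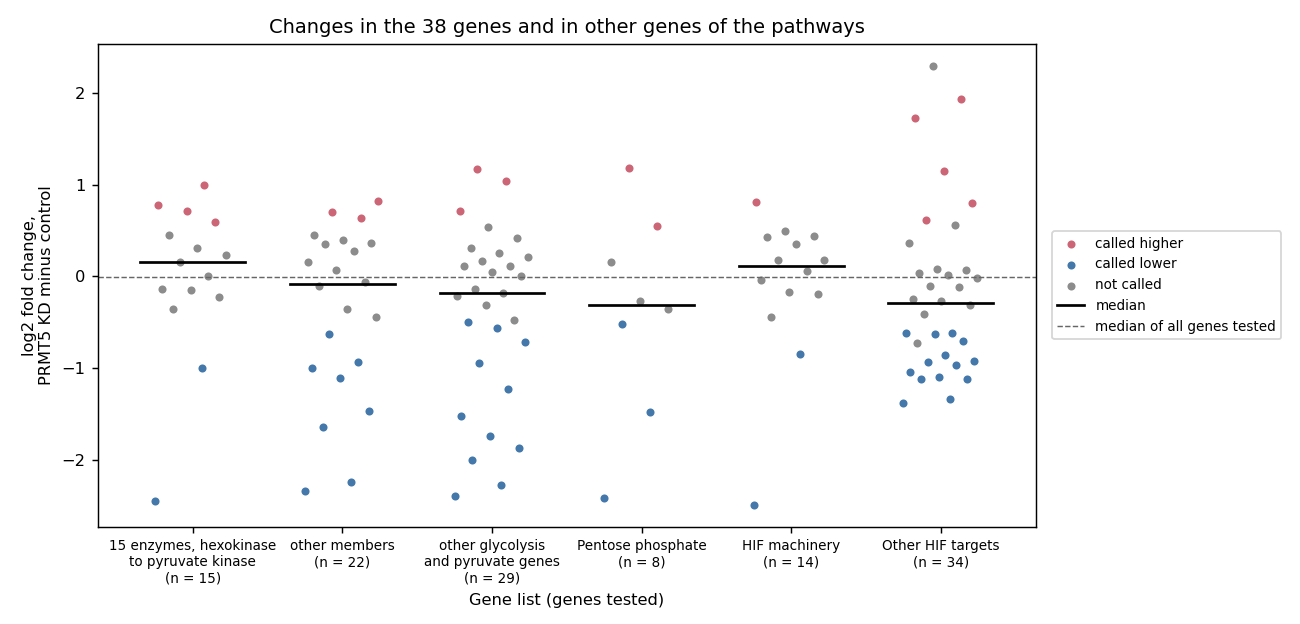
Log2 fold change of every tested gene of the 38, as 15 enzymes and 22 others, and of each list of other pathway genes, libraries labelled PRMT5 KD minus control, with 1 point for each gene and its call by colour. Each list spreads to both sides of 0, and the black lines mark medians of 0.15 for the enzymes, -0.09 for the others, 0.11 for the HIF machinery, -0.29 for the other HIF targets, -0.18 for other glycolysis and pyruvate genes and -0.31 for the pentose phosphate pathway.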

How the data were processed

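RNA-seq of 2 control and 2 PRMT5 KD-labelled libraries was used. The authors deposited estimated counts per gene, 1 table per library, not normalized. The submitters' processing notes name FastQC, Trim Galore, STAR, Salmon and DESeq2 on GRCh38, while the paper's methods describe FeatureCounts on protein-coding genes. The tables also list other RNA classes, and a share of the values carries decimals, so the counter was not settled. The 28 entries turned into dates by a spreadsheet were left out (0.150% to 0.161% of the counts). Names were matched to GENCODE release 44 by symbol (21877), RefSeq gene number (1147) or unique synonym (1533), with 56 ambiguous and 5042 unmatched.

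Counts were rounded. Tested were the 11912 protein-coding genes that reached 0.5 RPKM in both libraries of a group, with edgeR 4.0.16 (quasi-likelihood, robust, TMM, R 4.3.3), with Benjamini-Hochberg adjustment over all of them. The common biological coefficient of variation was 0.142. A call required an FDR under 0.05 and a log2 difference of 0.5 or more in either direction, as in the paper's methods. The standard error is the fold change divided by the square root of F. CPM values were TMM-scaled, and RPKM used union exon length. All 38 genes are named, with the up to 4 most changed called genes per direction of each other list whose groups did not overlap and whose average log2 CPM was at least 1. Some genes that this rule names are not reported here. The 38 genes, lists and rules were chosen with earlier results of these data known. Alternatives were DESeq2 1.42.0, other scalings, filters and thresholds, a replicate block, a length and GC correction (splines, 4 degrees of freedom), and leaving out each library. The fit was tested on simulated data in which a small part of the genes changed, so its behaviour under changes as broad as these was not tested. Same-numbered libraries did not deviate together (r = -0.0999 across 11912 genes), so the numbers were not treated as pairs.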

Additional observations from a re-analysis of the deposited data

How the results depend on the processing

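DESeq2, RLE size factors and the main test called the same 17 of the 37 genes, and the 10 lower calls varied from 7 to 11 over all alternatives. When a log2 difference of 1 or more was required, 7 of the 37 genes were called, 0 of them higher, with 2569 of all genes (1033 higher and 1536 lower). Of the other pathway genes 22 were called, and PRMT5 (0.66) was no longer called. Leaving out 1 library gave 11 (without control library 2) to 21 (without KD-labelled library 2) genes called, 3 to 11 of them higher, with 3125 to 5724 of all genes and 26 to 45 other pathway genes, and PRMT5 at 0.57 to 0.78. These fits hold fewer libraries by construction.

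Scaling by total counts moved the median of all genes tested to 0.17 and the share of higher among all calls from 46.6% to 61.3%. It turned the uncalled values of SLC2A1 (0.071), GPI (0.040), ALDOA (0.025) and LDHA (0.12), and the P4HA1 call was lost at -0.45. Relative to that median, these 4 genes stayed below it. Using all gene names turned LDHA (0.042). The replicate block called 16 of the 37 genes and 5190 of all genes, lost ANKRD37 and turned PFKFB3 (-0.033), and it changed no other call. The length and GC correction called 19, raised the median of all genes to 0.06, and turned SLC2A1 (0.022), GPI (0.19) and GAPDH (-0.070). With the block added these were 0.029, 0.18 and -0.070. Without 1 library the value ran from -0.30 to 0.11 for SLC2A1, -0.033 to 0.051 for GAPDH, -0.27 to 0.15 for LDHA, -0.55 to 0.53 for PFKFB3, -0.037 to 0.56 for PFKFB4 and -0.23 to 0.81 for ADM. Among the other pathway genes, whose alternatives were chosen after seeing the data, TKT also lost its call with total counts, other filters and all gene names. The cause of these changes was not tested. Depth limits the low genes most, ANKRD37, CA9 and EGLN3, and 2 libraries per group limit all values.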

Other observations

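Transcripts antisense to the 38 genes were measured in a fit over all gene names. SLC2A1-AS1 had 54 and 72 counts in control and 25 and 21 counts in the KD-labelled libraries (log2 fold change -1.43, SE 0.34, edgeR FDR = 0.0122), while SLC2A1 itself was not called. HIF1A-AS2 had 771 and 214 counts in control and 1481 and 1352 counts in the others (1.44, SE 0.82, FDR = 0.239), and its control libraries lay far apart. HIF1A-AS1 (-0.44, FDR = 0.409) and SLC16A1-AS1 (-0.03, FDR = 0.942) were not called. The library kit marks strand, but whether the counting used it is not given in the sources used here, so reads of a gene and of its antisense partner may be mixed.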
